A study of Homo sapiens with 6 samples.

Results

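The genes described here belong to the GATA, T-box, forkhead (FOXA to FOXL), HAND, TWIST, SNAI, ZEB, TFAP2, MEOX and PRRX families. EOMES is counted among the T-box genes. Many of them regulate non-neural lineages or epithelial-mesenchymal transition (EMT). Others act in neural tissue, such as FOXB1, or are widely expressed, such as FOXK2. The genes were taken by symbol from the count tables, which gave 65 of 26485 gene symbols. The rule used symbols only, but it was set with earlier results of these data known. The RNA came from AF22, an established neural stem cell line of human origin, and filled 6 libraries, 3 from cells labelled BMI1/COMMD3-BMI1 knockdown and 3 from shControl cells labelled WT. BMI1 belongs to the core of Polycomb repressive complex 1, while the read-through transcript COMMD3-BMI1 joins it to its upstream neighbour COMMD3. The labels give neither the hairpin sequences and vector nor whether the libraries of a group came from separate cultures. The p-values therefore speak of these libraries, and their spread could be technical.

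Polycomb complexes bind CpG-rich promoters of developmental transcription factors and help to keep them silent in cells of other lineages. GATA factors direct blood, heart and endoderm formation, T-box factors direct mesoderm, heart and limb, and forkhead proteins serve in almost every germ layer. SNAI, ZEB and TWIST proteins repress epithelial genes during EMT, and TFAP2 and several FOX proteins act in neural crest. The question for these genes was which were silent in control cells and whether any became active with the knockdown.

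BMI1, the targeted gene, was lower in every knockdown library than in any control library. It had 193, 159 and 250 counts in knockdown libraries 1, 2 and 3, against 463, 582 and 606 in control libraries 1, 2 and 3. In CPM (counts scaled to library totals of 1e6, on totals scaled by the TMM method) it averaged 29.2 ± 9.57 in knockdown and 87.5 ± 2.44 in control (SD, n = 3 each). Its log2 fold change of -1.61 (SE 0.194) had an adjusted p of 0.163 in edgeR with group as the only term. With the library number as a block the adjusted p was 0.00836. Total counts ran from 4962745 to 9640349 in knockdown and from 5496683 to 6870122 in control libraries. Knockdown library 2 stood apart: principal component 1 (49.2% of the variance) placed it at 40.2 and the others between -25.5 and 11.5. Libraries of the same number deviated together, so that each test below is given with and without the number as a block where the call differs.

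Markers of the labelled cell type other than HES5 were present. Summed over the list, neural stem cell markers stood at 3234 to 4433 CPM in knockdown and 3843 to 4113 CPM in control libraries, and HES5 was at 0 in all. VIM, also a mesenchymal gene, made up the largest part, averaging 2133 CPM in knockdown and 1899 CPM in control. NES and SOX2 stood at 869 and 325 CPM in knockdown and at 1032 and 345 CPM in control. PAX6 and SOX1 were low, at 11.8 and 20.6 CPM in knockdown and 14.7 and 25.8 CPM in control. Mesenchymal and fibroblast markers were also abundant, at 1749 to 2504 CPM in knockdown and 1393 to 1741 CPM in control, so that the groups narrowly did not overlap. Most of this sum was COL3A1, which averaged 1393 CPM in knockdown and 1057 CPM in control. Neural crest markers other than the genes described here (PAX3, NGFR and SOX10) summed to 26.6 to 37.0 CPM in knockdown and 31.2 to 42.3 CPM in control, with SOX10 at 0. Neuronal markers summed to 690.5 to 789.9 CPM in knockdown and 664.2 to 743.3 CPM in control, with ELAVL4 and RBFOX3 at 0. Most of this sum was MAP2 and TUBB3, at 543 and 140 CPM in knockdown and 489 and 154 CPM in control. DCX had 17 counts and STMN2 2 counts over the 6 libraries. Endothelial markers summed to 129.4 to 245.2 CPM in knockdown and 121.5 to 224.7 CPM in control, and pluripotency markers to 481.7 to 600.3 CPM in knockdown and 407.6 to 561.2 CPM in control, with NANOG at 0. The endothelial sum was mostly KDR, at 158 CPM in knockdown and 134 CPM in control. The pluripotency sum was mostly LIN28A and DPPA4, at 317 and 144 CPM in knockdown and 268 and 143 CPM in control. Epithelial markers were at most 4.46 CPM in knockdown and 3.75 CPM in control, with CDH1 at 0, and heart and blood markers at most 3.77 CPM in knockdown and 2.94 CPM in control, with PTPRC and HBG1 at 0. Endoderm markers were at most 14.2 CPM in knockdown and 10.7 CPM in control, with SOX17 at 0.

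Most of the 65 genes were silent or nearly so in both groups. No count was found for 20 genes (30.8%, against 28.3% of all symbols), 24 had at least 1 count but lay under the filter on low counts, and 21 (32.3%, against 48.8% of all symbols) had enough counts to be tested. The silent 20 were GATA1, GATA3 and GATA5; TBX3, TBX4, TBX5, TBX10, TBX20 and TBX22; FOXA1, FOXA2, FOXA3, FOXD3, FOXE1, FOXF1, FOXI1 and FOXI2; HAND1; and TFAP2C and TFAP2D. A count of 0 in every library of a group allows up to 0.137 CPM in knockdown and 0.16 CPM in control (3 counts of the group's total, covering counting error only). The endoderm pioneer factor FOXA2, the T-cell and breast regulator GATA3 and the heart regulator TBX5 were among those not detected at this depth in any library. Of the SNAI, ZEB, MEOX and PRRX genes none was without counts in all libraries, whereas 6 of 14 T-box and 3 of 6 GATA genes were.

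CpG-rich and CpG-poor windows at a listed start occurred among silent and expressed members alike. Promoter windows of 300 bases (250 before to 50 after the first listed start, RefSeq, GRCh38.p14) were matched for 46 of the 65 genes. Windows rich in CpG, taken as a GC content of at least 50% and a ratio of observed to expected CG of at least 0.6, were found for 8 of 15 genes without counts, 14 of 16 genes under the filter and 10 of 15 tested genes. The share was 69.6% over the 46 genes, 60.8% over all genes of the files with a window and 81.3% over all tested genes with one. Windows of 2 expressed genes are shown first (FOXC1 and TFAP2B) and those of 2 silent ones after them (FOXA1 and TBX20), chosen after their values were seen to show a CpG-rich and a CpG-poor window among expressed genes and CpG-rich windows of silent genes; CG is in capitals and each runs 5′ to 3′ on the gene's strand.
FOXC1, plus strand, chr6:1609665-1609964: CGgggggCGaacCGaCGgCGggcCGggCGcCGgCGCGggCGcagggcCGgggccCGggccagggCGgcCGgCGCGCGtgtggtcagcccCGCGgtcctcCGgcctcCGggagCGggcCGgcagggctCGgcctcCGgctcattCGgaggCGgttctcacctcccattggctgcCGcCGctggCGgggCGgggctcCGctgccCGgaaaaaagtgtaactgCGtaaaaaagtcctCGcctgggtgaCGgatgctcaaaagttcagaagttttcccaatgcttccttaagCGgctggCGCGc
TFAP2B, plus strand, chr6:50818621-50818920: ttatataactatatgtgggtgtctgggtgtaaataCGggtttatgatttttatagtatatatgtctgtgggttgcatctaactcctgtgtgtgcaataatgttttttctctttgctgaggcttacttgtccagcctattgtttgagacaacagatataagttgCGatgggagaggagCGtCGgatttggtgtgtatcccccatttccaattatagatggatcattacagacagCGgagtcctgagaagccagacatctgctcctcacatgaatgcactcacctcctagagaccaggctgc
FOXA1, minus strand, chr14:37595200-37595499: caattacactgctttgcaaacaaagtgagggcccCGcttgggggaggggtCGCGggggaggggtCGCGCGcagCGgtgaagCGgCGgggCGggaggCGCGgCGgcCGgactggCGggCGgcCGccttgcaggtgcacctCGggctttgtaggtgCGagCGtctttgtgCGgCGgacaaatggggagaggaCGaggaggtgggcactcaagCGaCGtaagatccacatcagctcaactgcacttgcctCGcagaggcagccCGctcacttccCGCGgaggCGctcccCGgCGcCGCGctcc
TBX20, minus strand, chr7:35254051-35254350: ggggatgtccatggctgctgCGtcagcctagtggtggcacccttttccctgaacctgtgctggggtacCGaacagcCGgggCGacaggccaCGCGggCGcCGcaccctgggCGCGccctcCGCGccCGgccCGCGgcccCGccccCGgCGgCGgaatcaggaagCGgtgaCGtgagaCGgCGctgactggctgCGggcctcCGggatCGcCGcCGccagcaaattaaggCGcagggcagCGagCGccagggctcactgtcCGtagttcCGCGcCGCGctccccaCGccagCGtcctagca
FOXC1 held 40 CG and TFAP2B 5, although TFAP2B had the highest level per kilobase of exon of all members in control, while FOXA1 held 34 and TBX20 38 without a read in any library. The E-box CACCTG, the letters that SNAI and ZEB zinc fingers recognise (read on both strands, as CACCTG or CAGGTG), lay in 21.7% of the 46 windows and in 20.6% of all RefSeq windows of this length; in FOXA1 it began at base 129 of the window.

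Where genes without reads in control had any in knockdown, they had 1 or 2. Of 26 genes with 0 counts in all control libraries, 6 had counts in knockdown (23.1%, against 12.2% of all symbols with 0 in control). Among them, EOMES, FOXB2 and TBX15 each had 1 count in knockdown library 2, HAND2 1 count in knockdown library 3 and TBX18 2 counts in knockdown library 3. In the opposite direction, TBX21 had 1 count in control library 2 and none in knockdown, 1 of 21 genes with 0 in knockdown (4.76%, against 9.43% of all symbols). The knockdown libraries held 1.17 times as many reads in all. Every one of these values lies within the 3 counts that a count of 0 allows. EOMES, a T-box factor of mesoderm and of cortical intermediate progenitors, had only that 1 count over the 6 libraries, too few to tell a change from counting error.

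Genes under the filter with at least 10 counts over the 6 libraries were 11. PRRX2, a homeobox gene of mesenchyme, had 6, 13 and 9 counts in knockdown and 8, 12 and 5 in control libraries 1, 2 and 3. TBX19, the T-box gene of pituitary corticotrophs, had 5, 11 and 15 counts in knockdown, against 6, 4 and 11 in control. FOXC2, a regulator of mesoderm and lymphatic vessels, had 2, 8 and 13 counts in knockdown, against 0, 4 and 5 in control. The counts of these 3 genes overlapped between the groups. Within numbers 1, 2 and 3, FOXC2 was higher in knockdown each time, at 0.414, 1.08 and 1.36 CPM in knockdown and 0, 0.618 and 0.721 CPM in control, which PRRX2 and TBX19 were not. FOXC2 was under the filter, so the fits over filtered genes did not test it, and its values without the filter are not given here. FOXI3 had 1, 6 and 7 counts in knockdown and 3, 7 and 1 in control libraries. GATA4, the heart and endoderm factor, had 1, 5 and 4 counts in knockdown and 1, 1 and 5 in control libraries. FOXL1 had 0, 4 and 3 counts in knockdown and 2, 3 and 3 in control libraries. Neither group stood above the other in FOXI3, GATA4 or FOXL1. GATA2, TFAP2E, MEOX2, FOXD4 and SNAI3 had 10 to 13 counts in all, and GATA6, TBX1, TBX6, FOXD2, FOXE3 and FOXH1 had 2 to 6. FOXH1 shares 791 exon bases with KIFC2 and TBX1 280 with GNB1L on the opposite strand, and since the strand setting of the counting is not given, such low counts cannot be told from reads of the partner gene.

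Summed over the 44 genes that were not tested, the level was 4.76, 9.06 and 7.02 CPM in knockdown libraries 1, 2 and 3, and 6.06, 7.57 and 6.49 CPM in control libraries 1, 2 and 3. The mean was 6.94 ± 2.15 CPM in knockdown and 6.71 ± 0.778 CPM in control (SD, n = 3 each). The knockdown libraries gave both the lowest and the highest sum and spanned the control libraries.

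**Figure D1:**
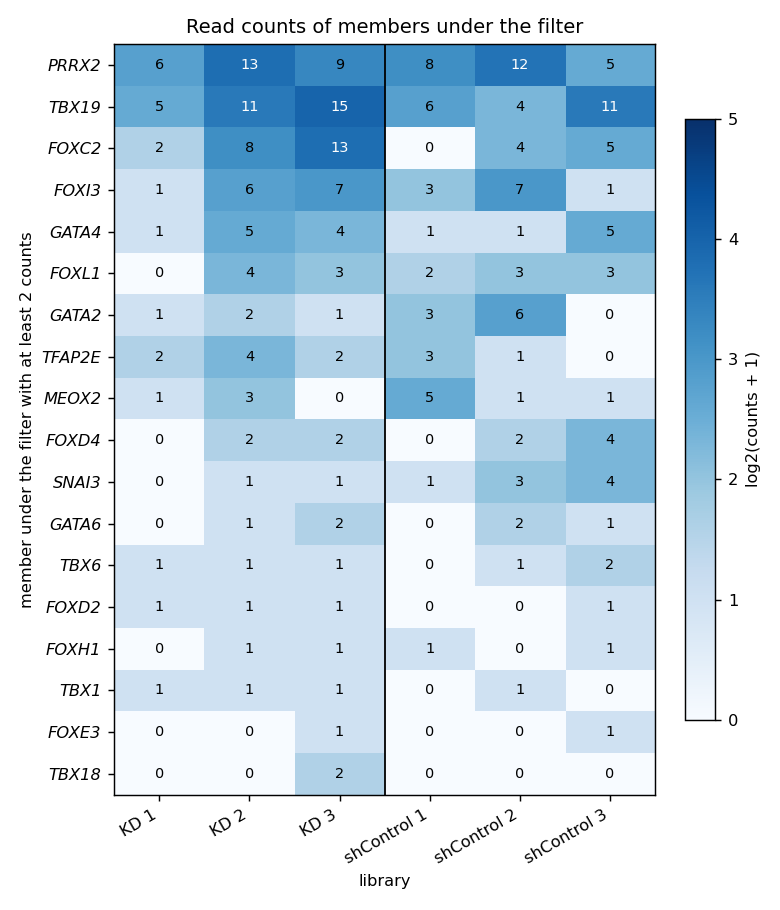
Read counts of members under the filter that had at least 2 counts over the 6 libraries (rows) in the 3 knockdown (KD) and 3 shControl libraries (columns); colour is log2(counts + 1) and the printed numbers are the counts. PRRX2, TBX19 and FOXC2 hold the largest sums, and TBX18 has its 2 counts in knockdown library 3 alone.

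The tested members were ranked by their level per kilobase of merged exons (GENCODE 29). TFAP2B, a regulator of neural crest and dorsal neural tube derivatives, was first in control, at 32.9 ± 3.91 CPM per kilobase in knockdown and 36.6 ± 2.94 in control (SD, n = 3 each). TWIST1, the basic helix-loop-helix factor of cranial mesenchyme, followed at 36.0 ± 10.3 in knockdown and 29.7 ± 2.97 in control, and SNAI2 at 25.5 ± 5.17 CPM per kilobase in knockdown and 22.7 ± 3.73 in control. FOXC1, ZEB1, FOXK2 and SNAI1 lay at 13.1 to 15.8 CPM per kilobase in control, and these 4 neighbours differed by less than the spread of FOXC1 (SD 3.13). TFAP2A, the paralogue of TFAP2B, was the lowest of the 21, at 0.573 ± 0.441 CPM per kilobase in knockdown and 0.368 ± 0.125 in control. The length counts every annotated exon, so genes with many isoforms, such as ZEB2 (25058 bases), come out low on this scale.

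**Figure D2:**
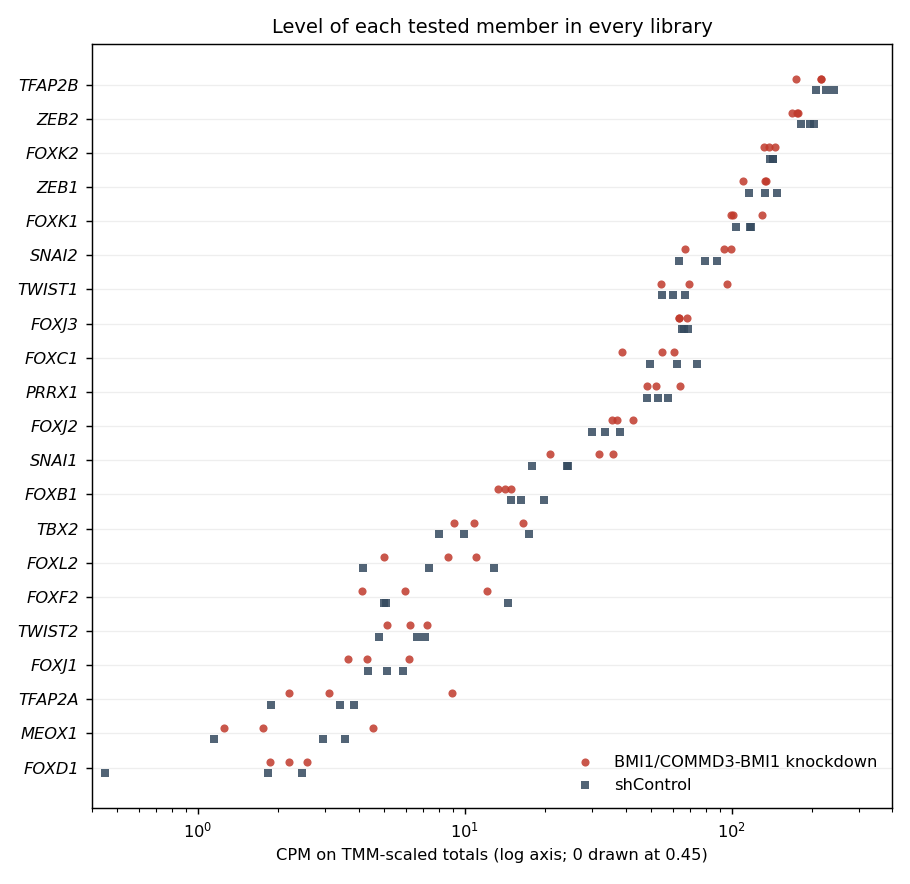
CPM on TMM-scaled totals (log axis) of the 21 tested members in each library, knockdown in red circles above shControl in dark squares. The groups overlap in every gene except ZEB2; FOXD1 in control library 2 had 0 counts and is drawn at the left edge.

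With group as the only term, edgeR's quasi-likelihood test called 0 of the 21 tested members at an adjusted p of 0.05, where it called 0% of all 12937 tested genes, and 0 members had an unadjusted p under 0.05 (14.4% of all tested genes). DESeq2 and limma voom also called 0 members. DESeq2 gave no adjusted p for several low members, among them FOXD1, FOXF2, FOXJ1, FOXL2, MEOX1 and TFAP2A, so it could not call these. With the library number as a block, 1 of 21 was called higher in knockdown, as were 4.63% of all tested genes, and 0 of 21 were called lower, as were 5.39% of all tested genes. In that fit 5 members had an unadjusted p under 0.05 (28.7% of all tested genes). The blocked count of members was 4 without pair 2 (SNAI1, FOXC1, TFAP2B and ZEB2) and 0 without pair 3, where the count over all genes was 2296 and 912, against 1296 with all pairs. The groups did not overlap in 1 of the 21, ZEB2, and in 20.5% of all tested genes. The median log2 fold change was -0.031 over the tested members and -0.0029 over all tested genes. In size, without sign, the medians were 0.14 and 0.15.

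SNAI1 was the member called. It encodes the zinc finger repressor Snail, which silences CDH1 and other epithelial genes, and lies on chromosome 20 at 49982999 to 49988886 on the plus strand (GRCh38, GENCODE 29). It had 101, 236 and 342 counts in knockdown libraries 1, 2 and 3, against 97, 158 and 167 in control libraries 1, 2 and 3. The level was 20.9, 31.9 and 35.8 CPM in knockdown, against 17.8, 24.4 and 24.1 CPM in control, on average 29.5 ± 7.75 CPM in knockdown and 22.1 ± 3.72 CPM in control (SD, n = 3 each). Knockdown libraries 2 and 3 were above all control libraries, and knockdown library 1 lay between control library 1 and the others. Within numbers 1, 2 and 3 the log2 differences were 0.23, 0.38 and 0.57. SNAI1 rose 1.34-fold in the blocked fit, a log2 fold change of 0.42 (SE 0.11) with an edgeR adjusted p of 0.0473. With group only it was 0.43 (SE 0.212) with an adjusted p of 0.399. The blocked call was lost with total count scaling (adjusted p 0.0524), with DESeq2 (0.263) and without pair 3 (0.369, log2 fold change 0.32). It stood without pair 1 (0.0478) and without pair 2 (0.00135, log2 fold change 0.46). The summed mesenchymal markers moved in the same direction, at 1847, 2504 and 1749 CPM in knockdown libraries 1, 2 and 3 and 1597, 1741 and 1393 CPM in control; their part in the result was not tested. In these bulk libraries a change in the share of cells of a type cannot be told apart from a change in RNA per cell.

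The other SNAI and ZEB genes did not pass. SNAI2 (Slug), the Snail paralogue of neural crest, had 451, 738 and 636 counts in knockdown and 480, 512 and 438 in control libraries. It averaged 86.5 ± 17.5 CPM in knockdown and 76.8 ± 12.7 CPM in control (n = 3 each), with an edgeR log2 fold change of 0.17 and an adjusted p of 0.681 (0.201 blocked). SNAI2 was higher in knockdown within each number, while the groups overlapped. ZEB2, which encodes the Smad-interacting zinc finger repressor, was at 176.2, 176.9 and 168.9 CPM in knockdown, against 202.5, 196.5 and 181.4 CPM in control. All knockdown libraries of ZEB2 were below all control libraries, by a small margin. The blocked log2 fold change of -0.15 (SE 0.0617) had an edgeR adjusted p of 0.149, which was 0.0437 without pair 2 and 0.436 with group only. ZEB1, the paralogue of ZEB2, was at 133.2, 109.9 and 134.8 CPM in knockdown, against 147.6, 115.8 and 133.7 CPM in control, with a log2 fold change of -0.071 (SE 0.120) and an edgeR adjusted p of 0.821 (0.532 blocked). ZEB1 shares 366 exon bases with its antisense gene ZEB1-AS1, which had 41, 43 and 73 counts in knockdown and 55, 74 and 72 in control, and ZEB2 shares 1299 with ZEB2-AS1, which had at most 4 counts in any library.

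TWIST1 was at 54.4, 95.7 and 69.3 CPM in knockdown libraries 1, 2 and 3, against 54.6, 66.6 and 60.0 CPM in control libraries. Knockdown libraries 2 and 3 were above all control libraries and knockdown library 1 was below them. With the block its log2 fold change of 0.26 (SE 0.102) had an edgeR adjusted p of 0.135. With group only the value was 0.28, at an adjusted p of 0.522. Without knockdown library 2 the unpaired value was 0.045. TWIST2, its paralogue in dermis and bone, averaged 6.20 ± 1.05 CPM in knockdown and 6.16 ± 1.24 CPM in control (n = 3 each), a log2 fold change of -0.0059. PRRX1, the homeobox gene of limb and craniofacial mesenchyme, averaged 54.8 ± 8.42 CPM in knockdown and 53.0 ± 4.68 CPM in control, with a log2 fold change of 0.054 and a 95% interval of -0.24 to 0.35. MEOX1, the somite homeobox gene, was at 4.55, 1.76 and 1.26 CPM in knockdown, against 2.94, 3.56 and 1.15 CPM in control, a log2 fold change of -0.12 with a 95% interval of -1.41 to 1.17.

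FOXC1 had the most negative log2 fold change of the tested members. It encodes a forkhead factor of periocular and meningeal mesenchyme and lies on chromosome 6 at 1609972 to 1613897 on the plus strand (GRCh38, GENCODE 29). Its level was 54.8, 60.8 and 38.7 CPM in knockdown libraries 1, 2 and 3, against 62.5, 74.0 and 49.5 CPM in control libraries 1, 2 and 3. Each knockdown library was below the control library of its number, while the groups overlapped, since number 3 was low in both. With the block a log2 fold change of -0.28 (SE 0.0786) had an edgeR adjusted p of 0.057. It passed with no filter on low counts (0.0439) and without pair 2 (0.0163). With group only the adjusted p was 0.543.

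Neither the widely expressed forkhead genes nor FOXB1 and FOXJ1 passed the test in either fit. FOXK2, a regulator of glycolysis and autophagy genes, was at 137.5, 131.9 and 145.7 CPM in knockdown, against 142.6, 139.4 and 142.4 CPM in control. Its log2 fold change was -0.031 (SE 0.0792, 95% interval -0.21 to 0.15), with an edgeR adjusted p of 0.883 (0.777 blocked). FOXK1, its paralogue, averaged 110.3 ± 17.4 CPM in knockdown and 113.2 ± 7.86 CPM in control (log2 fold change -0.036, n = 3 each). FOXJ3 averaged 65.0 ± 2.71 CPM in knockdown and 66.9 ± 1.74 CPM in control (-0.041), slightly lower in knockdown within each number. FOXJ2 averaged 38.4 ± 3.76 CPM in knockdown and 33.9 ± 4.02 CPM in control (0.19). FOXB1, a regulator of the hypothalamus and spinal cord, averaged 14.1 ± 0.793 CPM in knockdown and 16.9 ± 2.55 CPM in control (-0.27), lower in knockdown within each number. FOXJ1, the master regulator of motile cilia, averaged 4.72 ± 1.33 CPM in knockdown and 5.10 ± 0.776 CPM in control (-0.14). The edgeR adjusted p of FOXK1, FOXJ1, FOXJ2, FOXJ3 and FOXB1 with the block was at least 0.239. FOXK2 shares 53 exon bases with WDR45B and FOXJ1 9 with RNF157-AS1, on the opposite strand.

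In the TFAP2 family, TFAP2B was at 216.3, 216.1 and 174.5 CPM in knockdown, against 242.6, 225.4 and 206.5 CPM in control. Knockdown libraries 1 and 2 lay between control libraries 2 and 3, and knockdown library 3 lay below all others. Each knockdown library was below the control library of its number. For TFAP2B the blocked log2 fold change of -0.16 (SE 0.065) had an edgeR adjusted p of 0.155, which was 0.0013 without pair 2 (-0.21) and 0.557 with group only. TFAP2A, a regulator of neural crest and surface ectoderm, had 15, 66 and 21 counts in knockdown, against 21, 22 and 13 in control. Knockdown library 2 alone was high, at 8.92 CPM, where the other 5 libraries were at 1.88 to 3.86 CPM. The unpaired log2 fold change of TFAP2A was 0.66 (SE 0.548) with this library and -0.23 without it. TFAP2A-AS1, which shares 438 exon bases with it on the opposite strand, had 8 counts in knockdown library 2 and at most 3 in any other.

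Several low members differed more between library numbers than between the groups, as the plot by library number shows. FOXF2, a forkhead gene of palate and brain pericytes, was at 4.14, 12.2 and 5.97 CPM in knockdown libraries 1, 2 and 3, and at 4.96, 14.5 and 5.05 CPM in control libraries 1, 2 and 3. Number 2 was high in both groups. FOXL2, the ovarian and pituitary forkhead gene, was at 8.68, 5.0 and 11.0 CPM in knockdown and 7.35, 4.17 and 12.8 CPM in control, highest in number 3 and lowest in number 2 in both. TBX2, a T-box repressor, was at 9.10, 10.8 and 16.6 CPM in knockdown and 9.92, 8.04 and 17.5 CPM in control. It was the only T-box gene of the 14 with enough counts to be tested, and number 3 was its highest in both groups. The means of the 3 numbers differed up to 2.93-fold in FOXF2 and 2.60-fold in FOXL2, against 1.10-fold and 1.01-fold between the group means. The log2 fold changes were -0.12 for FOXF2, 0.018 for FOXL2 and 0.058 for TBX2. The ratio of the highest to the lowest number mean exceeded that of the group means in 20 of the 21 tested members and in 72.5% of all tested genes, where 3 means are set against 2. FOXD1, a forkhead gene of ventral diencephalon and kidney stroma, had 9, 19 and 21 counts in knockdown and 10, 0 and 17 in control libraries. Its log2 fold change was 0.64 with control library 2 and 0.043 without it.

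**Figure D3:**
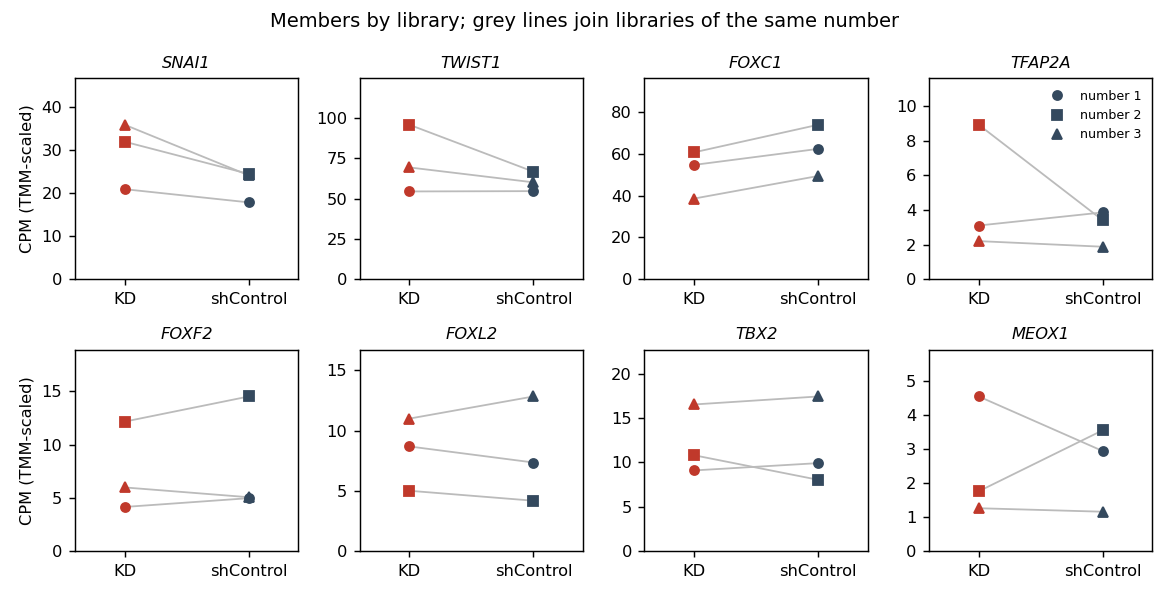
CPM of 8 tested members in knockdown (KD) and shControl libraries, with marker shape for the library number and grey lines joining libraries of the same number. SNAI1 is higher and FOXC1 lower in knockdown in each of the 3 pairs, TFAP2A is high in knockdown library 2 alone, and in FOXF2, FOXL2 and TBX2 the same number is highest in both groups.

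The intervals limit how large a rise could have been missed. With group only, the upper 95% bound of the log2 fold change was under 1 in 17 of the 21 tested members (81.0%, against 92.8% of all tested genes), and with the block in 19 of 21 (90.5%, against 96.3%). The 4 members above that bound with group only were FOXD1, TFAP2A, MEOX1 and FOXF2, and with the block they were FOXD1 and TFAP2A. A doubling was therefore outside the interval for SNAI1 (upper bound 0.91), FOXL2 (0.98) and TBX2 (0.81) with group only.

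Genes that work with these factors were read from lists in the same fits. Of 47 tested genes in 7 partner lists, 0 were called with group only by edgeR (DESeq2 called 2), and with the block 6 rose and 2 fell. Over all tested genes the block called 4.63% higher and 5.39% lower in knockdown, so that the 2 that fell are near the share over all genes. The lists were made with earlier results of these data known, so the 6 that rose cannot be read as an excess. The blocked count of 8 became 12 without pair 2, 5 without pair 3 and 4 with DESeq2. Among EMT effectors 2 of 7 tested genes rose. The matrix protease gene MMP2 was at 411.5, 602.7 and 450.7 CPM in knockdown, against 320.3, 347.8 and 344.4 CPM in control (blocked log2 fold change 0.52, SE 0.0905, edgeR adjusted p 0.0244). The fibronectin receptor subunit gene ITGA5 averaged 243.4 ± 71.0 CPM in knockdown and 153.1 ± 23.8 CPM in control (0.64, SE 0.089, n = 3 each, edgeR adjusted p 0.0211). Epithelial and junction genes of the list ranged widely in level. CDH1 and CLDN3 had 0 counts in all libraries, while EPCAM had 20, CLDN1 52 and OCLN 68 counts over the 6 and were not tested. The tight junction scaffold gene TJP1 averaged 206.2 ± 16.3 CPM in knockdown and 215.4 ± 9.79 CPM in control, and the keratin gene KRT18 1.80 ± 1.20 CPM in knockdown and 1.32 ± 0.737 CPM in control (n = 3 each). Their blocked log2 fold changes were -0.064 and 0.44 (edgeR adjusted p 0.566 and 0.426). The mesenchymal genes VIM and FN1 had blocked log2 fold changes of 0.16 and 0.25 (edgeR adjusted p 0.234 and 0.128). The summed mesenchymal markers, mostly COL3A1, were also higher in all knockdown libraries, as given beside SNAI1. The margin was narrow, at 1749 CPM in the lowest knockdown and 1741 CPM in the highest control library. Knockdown library 2 was the highest in this sum as in MMP2.

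Of 14 EMT partners, 3 rose (4.63% of all tested genes did) and 1 fell (5.39% of all tested genes did). TGFB2, a ligand that induces SNAI and ZEB genes, was at 1.65, 9.60 and 7.75 CPM in knockdown, against 1.47, 3.86 and 1.73 CPM in control (blocked log2 fold change 1.46, SE 0.302, edgeR adjusted p 0.0281). The receptor gene TGFBR2 averaged 74.4 ± 17.8 CPM in knockdown and 47.0 ± 1.17 CPM in control (0.66, edgeR adjusted p 0.0244, n = 3 each). The signal transducer gene SMAD3 changed by 0.27 on the log2 scale (edgeR adjusted p 0.0416), and the corepressor gene CTBP1, a partner of ZEB proteins, by -0.28 (0.0497). Of 9 other forkhead genes the mitotic factor gene FOXM1 fell, at 103.6 ± 36.3 CPM in knockdown and 155.7 ± 14.4 CPM in control (-0.64, SE 0.131, n = 3 each, edgeR adjusted p 0.0281). Of 5 TFAP2 partners the coactivator gene CITED2 rose, by 0.36 (edgeR adjusted p 0.0292). None of 4 tested GATA partners, 7 basic helix-loop-helix partners of TWIST and HAND (TCF12 at 0.055 and TCF3 at -0.11) and 1 other T-box gene (MGA at -0.023) passed in the blocked fit. LDB1 and ZFPM2, the most abundant GATA partners, had blocked log2 fold changes of 0.23 and 0.31 (edgeR adjusted p 0.0901 and 0.0575).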

How the data were processed

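Total RNA of AF22 cells was made into directional libraries, per the labels' protocols. The authors deposited 1 table per library of whole-number read counts per gene symbol, judged raw from the values. The submitters' processing notes list Trim Galore 0.6.6, STAR 2.7.10a, bedtools and hg38. How reads were counted, and with which strand setting, is not given in the sources used here.

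Genes across the whole transcriptome were kept by filterByExpr (12937), scaled with TMM factors and tested with edgeR 4.0.16 (R 4.3.3, glmQLFit and glmQLFTest), two-sided, group as the only term, Benjamini-Hochberg over all tested genes at 0.05. SE is the log2 fold change over the square root of F. The intervals use the same SE. Alternatives were RLE factors, total count, other filters, DESeq2 1.42.0, limma voom (limma 3.58.1), and leaving out libraries or pairs. The pipeline was checked on simulated counts.

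The number was added as a block as an alternative. Deviations from group means of same-numbered libraries correlated at 0.563, 0.467 and 0.535 across genes, all above 0.1. Equal numbers were therefore treated as pairs, a pairing that rests on the data and not on the labels.

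Every tested member is named. Values in every library are given for those with a p under 0.05 in either fit, the 4 of highest mean CPM and, chosen after the values were seen, some others. Untested members are named, with counts for the 6 largest sums, except 1 gene that is not reported here. Partner genes are named where called, otherwise by abundance, with CDH1, CLDN1, CLDN3, EPCAM, OCLN, TJP1 and KRT18 chosen after their values were seen. Members and lists were chosen with earlier results of these data known. At total counts of 4962745 to 9640349 per library, the filter left genes under about 1 CPM untested. It also left out some above that level, such as OCLN at a mean of 1.52 CPM.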

Additional observations from a re-analysis of the deposited data

How the results depend on the processing

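With group only, the count of all genes called was 0, and 2 with no filter, 142 with DESeq2 and 0 to 665 when a library was left out (665 without knockdown library 1). No member was called in any of these settings. With or without the block, DESeq2 gave no adjusted p for some low members and could not call them. Partner genes called were 0, and 2 with DESeq2 and 0 to 5 without a library. BMI1 stayed between -1.87 and -1.44 without a library; it passed with no filter (-1.61), with DESeq2 (-1.59), without knockdown library 1 (-1.87, edgeR adjusted p 0.00114) and with the library number as a block (-1.64). The block gave 1296 genes, 1 member and 8 partner genes. Under the block, all genes called were 2171 with no filter, 590 with DESeq2 and 912 to 2296 without a pair. Members called under the block were 0 with total count, 2 with no filter, 0 with DESeq2 and 0 to 4 without a pair (without pair 2 SNAI1, FOXC1, TFAP2B and ZEB2; without pair 3 none). Partner genes were 4 with DESeq2 and 5 to 12 without a pair. The cause of these shifts was not tested.

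Signs turned in members that no fit called. Ranges of the log2 fold change without a library (group only) were -0.66 to 0.59 for FOXF2, -0.34 to 0.010 for FOXJ1, -0.17 to 0.035 for FOXK1, -0.071 to 0.0038 for FOXK2, -0.30 to 0.53 for FOXL2, -0.75 to 0.25 for MEOX1, -0.073 to 0.14 for PRRX1, -0.25 to 0.46 for TBX2, -0.23 to 1.04 for TFAP2A, -0.17 to 0.12 for TWIST2 and -0.16 to 0.020 for ZEB1. Ranges with the block and without a pair were -0.098 to 1.47 for FOXD1, -0.26 to 0.062 for FOXF2, -0.23 to 0.028 for FOXJ1, -0.13 to 0.040 for FOXK1, -0.078 to 0.25 for FOXL2 (-0.061 without pair 1), -0.57 to 0.45 for MEOX1, -0.051 to 0.20 for PRRX1, -0.091 to 0.17 for TBX2, -0.055 to 0.99 for TFAP2A and -0.045 to 0.12 for TWIST2. FOXL2 was -0.0014 with total count, -0.00034 with the block and total count, and -0.0070 with the block and limma voom. TWIST2 was 0.0016 with RLE factors, 0.0032 with DESeq2, 0.0042 with the block and -0.012 with the block and total count. SNAI1 was positive in every setting run (0.26 to 0.61 without a library). The difference of the summed untested members moved by less than the control SD under total count, RLE factors and without PRRX2. Depth limits the untested members, where 3 counts are 0.311 to 0.605 CPM per library.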
